A study of Homo sapiens with 24 samples.

Results

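The comparison described here is the steady state of HepG2 cells with IGF2BP1 knocked down, before transcription was blocked. It consists of the 2 libraries labelled siIGF2BP1 at 0 h against the 2 libraries labelled siControl at 0 h, so 4 of the 24 libraries of the series. HepG2 is an established human liver cancer line with an epithelial-like form. Cells were transfected with siRNA against IGF2BP1, IGF2BP2 or IGF2BP3 (siIGF2BP1, siIGF2BP2, siIGF2BP3) or with a negative control siRNA from another supplier (siControl), then re-seeded and grown on before collection. The 0 h plates received no actinomycin D, while sister plates of the same transfected dishes received it for 3 h or 6 h. Each group holds 2 libraries of polyadenylated RNA. The labels do not say whether they came from separate transfections, so p-values measure the spread between these libraries, which may be technical. The knockdown was transient, with a predesigned reagent for each gene whose sequence is not given in the sources used here.

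IGF2BP1 is an RNA-binding protein with RNA recognition motifs and KH domains that binds many mRNAs, mostly in their 3′ untranslated region (3′ UTR). It is known for shielding bound transcripts from decay and for steering their translation. It is abundant in fetal tissues, nearly silent in adult liver and switched on again in many liver cancers.

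Gene reads at 0 h ranged from 37210275 to 74252042 per library, and replicates differed by more than sampling noise in every group. Hepatocyte markers were present in all 8 libraries at 0 h: all 10 passed the filter on low counts, among them APOB, AFP and ALB, the main protein of plasma. Of 30 markers of fibroblasts, endothelial cells and leukocytes, 8 passed, and LUM, KDR, EMCN and CLEC4G were at 0 in all 8. Their summed level in siControl against siIGF2BP1 was 38.7 and 38.2 against 34.7 and 35.4 CPM (the usual depth-scaled read count) for fibroblast markers. That sum was nearly all ACTA2 (29.5 and 28.3 against 28.1 and 27.7 CPM) and PDGFRB (8.16 and 8.84 against 5.81 and 6.47 CPM). For endothelial markers the sum was 5.89 and 4.93 against 4.24 and 4.72 CPM. The leukocyte sum, 1090 and 1070 against 810 and 851 CPM, was nearly all LYZ, a secreted antibacterial enzyme, while PTPRC, the common leukocyte antigen, was at 0 in those 4 libraries. LYZ fell by 0.38 on the log2 scale (adjusted p = 8.47e-12), and the part of such shifts in the results below was not tested. In bulk RNA, fewer cells of a kind and less RNA per cell cannot be told apart.

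The targeted transcript was examined first. All levels below are CPM scaled by the trimmed mean of M-values (TMM) and all differences are log2 fold changes from edgeR. IGF2BP1 (chromosome 17, 48997385 to 49056145, plus strand, hg38) was at 621 and 632 CPM in the siControl libraries, 130 and 135 CPM in siIGF2BP1, 646 and 628 CPM in siIGF2BP2, and 686 and 681 CPM in siIGF2BP3. Both siIGF2BP1 libraries were far below the other 6, which lay close together. The mean fell from 627 ± 8.32 to 132 ± 2.91 CPM (SD, n = 2), a difference of -2.24 (SE 0.032, adjusted p = 2.55e-36), which left 21.1% of the control level.

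The related transcripts did not fall with it. IGF2BP3 was at 102 and 99.0 CPM in siControl and at 113 and 121 CPM in siIGF2BP1, a rise of 0.22 (SE 0.041, adjusted p = 1.33e-04) that lost its call under ERCC scaling (0.19, adjusted p = 0.266). The groups did not overlap, and the level in siIGF2BP2 was 97.8 and 99.8 CPM, as low as in siControl. IGF2BP2 was at 169 and 176 CPM in siControl and at 182 and 189 CPM in siIGF2BP1, a difference of 0.10 that missed the threshold (SE 0.037, adjusted p = 0.0501), and it passed with DESeq2 (0.0192), in fits of 8 or 4 libraries (0.0429 and 0.0397) and with the replicate block (0.0427).

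**Figure D1:**
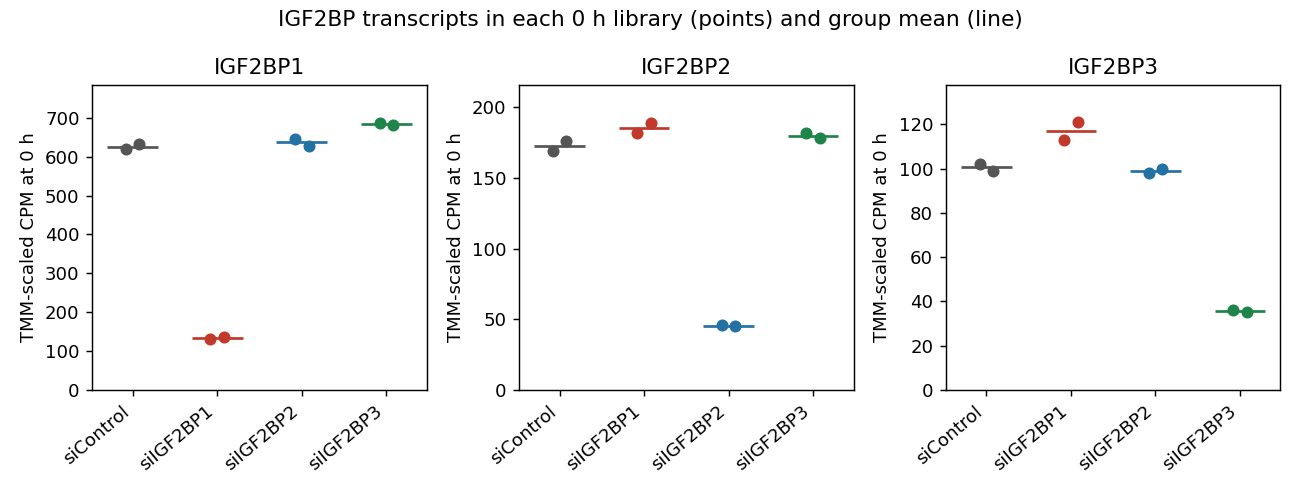
TMM-scaled CPM (linear axis from 0) of IGF2BP1, IGF2BP2 and IGF2BP3 in the 8 libraries at 0 h, by siRNA; points are libraries and lines are means of 2. Each transcript is low only in the cells given its own siRNA, and IGF2BP3 sits at 113 and 121 CPM in siIGF2BP1 against 102 and 99.0 CPM in siControl.

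The next comparison asked which other transcripts differed between siIGF2BP1 and siControl. Of 13136 genes tested, 15.9% were called at an adjusted p under 0.05, with 9.43% higher (1239 genes) and 6.5% lower (854 genes). Nearly all changes were small: 237 genes differed by at least 0.5 on the log2 scale and 36 by at least 1, of which 10 were higher and 26 lower. Calls were more frequent among abundant transcripts, from 20.1% of genes at a mean of 5 CPM or more to 35.7% of those at 100 CPM or more. Scaling by the ERCC spike-in RNA in place of TMM left 649 calls, 39.0% of them higher against 59.2%, and scaling by library size alone gave 2043 calls with 49.2% higher. The control libraries held 75293 and 111422 ERCC reads beside 57341486 and 74252042 gene reads, a ratio that differed more between them than between the siIGF2BP1 libraries (104051 and 52902 beside 73963280 and 37210275).

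The largest falls touched signalling receptors, copper export and lipid mediators. TGFBR3 (chromosome 1, 91680343 to 91906335, minus strand), the betaglycan co-receptor for TGF-beta, was at 173 and 171 CPM in siControl and at 66.6 and 72.5 CPM in siIGF2BP1. The pairs lay far apart, and the difference was -1.31 (SE 0.044, adjusted p = 2.87e-23). PIAS3 (chromosome 1, 145848522 to 145859836, minus strand), a SUMO ligase that inhibits STAT3, was at 13 and 12.9 CPM against 6.34 and 4.85 CPM (-1.18, SE 0.11, adjusted p = 4.28e-10). ATP7A (chromosome X, 77910690 to 78050395, plus strand), a copper-exporting ATPase, was at 10.4 and 9.26 CPM against 5.21 and 3.28 CPM (-1.16, SE 0.13, adjusted p = 2.40e-08). Groups did not overlap for either gene, although the 2 knockdown libraries stood further apart for ATP7A. HAGLR (chromosome 2, 176164051 to 176188958, minus strand), a long noncoding RNA of the HOXD cluster, was at 42.4 CPM in both control libraries and at 19.8 and 20.3 CPM after knockdown (-1.08, SE 0.064, adjusted p = 9.34e-16). LTA4H (chromosome 12, 96000753 to 96043520, minus strand), which makes leukotriene B4, went from 59.5 and 61.2 CPM to 30.6 and 31.3 CPM (-0.97, SE 0.048, adjusted p = 5.89e-18).

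The other named falls were of low-abundance transcripts or of genes that were also low in another knockdown. PCYT1B, an enzyme of phosphatidylcholine synthesis, fell from 8.14 and 9.46 CPM to 4.52 and 3.92 CPM (-1.05), and LPAR6, a receptor for lysophosphatidic acid, from 9.22 and 9.14 CPM to 4.5 and 4.92 CPM (-0.97). PPP2R2C, a regulatory subunit of protein phosphatase 2A, was at 7.39 and 6.64 CPM against 3.70 and 3.40 CPM (-0.98, adjusted p = 0.0069), but DESeq2 gave it an adjusted p of 0.139 and its difference was 0.76 at 3 h. DUSP6, a phosphatase that switches off ERK, was at 42.7 and 41.7 CPM in siControl and at 21.4 and 22.8 CPM in siIGF2BP1 (-0.94). It was also low in siIGF2BP2 (22.5 and 23.3 CPM) and in siIGF2BP3 (26.9 and 27.5 CPM). RHBDL2, a rhomboid protease, was low in every knockdown (-0.94, -0.57 and -0.76 in siIGF2BP1, siIGF2BP2 and siIGF2BP3). IGFBP1, a secreted IGF-binding protein, was at 62.3 and 47.5 CPM in siControl and at 25.2 and 34.1 CPM in siIGF2BP1 (-0.91), with -0.86 in siIGF2BP3 and -0.22 in siIGF2BP2.

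The largest rises were mostly shared by the other knockdowns. CFDP1 (chromosome 16, 75293698 to 75433503, minus strand), a chromatin protein, was at 25 and 26.8 CPM in siControl and at 71.9 and 66.5 CPM in siIGF2BP1 (1.42, SE 0.053, adjusted p = 6.15e-22). All 6 knockdown libraries lay between 66.5 and 71.9 CPM, so only the control pair stood apart. DSC2, a desmosomal cadherin, rose by 1.17 (SE 0.049, adjusted p = 2.12e-20), from 46.9 and 43.3 CPM to 101 CPM in both libraries, and by 0.95 and 0.94 in siIGF2BP2 and siIGF2BP3. SMIM15, a small membrane protein, rose by 1.09 (SE 0.079, adjusted p = 2.66e-13), and by 1.09 and 1.17 in the others. CROT, which links fatty acyl chains to carnitine for export from peroxisomes, and TDRD7, a tudor-domain protein of RNA granules, rose by 0.90 and 0.81. ALDH8A1, an aldehyde dehydrogenase of the kynurenine pathway, and CSGALNACT2, which starts chondroitin sulfate chains, rose by 0.80 and 0.79. CROT, TDRD7, ALDH8A1 and CSGALNACT2 were called higher in all 3 knockdowns too. The 3 comparisons share the siControl libraries.

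SLC30A10, INHBE, ZNF678 and CES1P1 rose in siIGF2BP1 and passed the direct test against each other knockdown. SLC30A10, a manganese exporter of hepatocytes, was at 30.6 and 26.4 CPM in siControl, 44.7 and 50.6 CPM in siIGF2BP1, 29.6 and 31.4 CPM in siIGF2BP2, and 34.2 and 35.9 CPM in siIGF2BP3 (0.74, SE 0.072, adjusted p = 4.47e-10). The siIGF2BP1 pair was above the other 6 libraries. INHBE, a secreted inhibin chain made by liver, was at 8.78 and 10.5 CPM against 17.7 and 17.6 CPM (0.87, SE 0.10, adjusted p = 4.82e-08), with 0.34 and 0.39 in siIGF2BP2 and siIGF2BP3. ZNF678, a zinc finger gene, rose by 0.81 and CES1P1, a pseudogene next to the carboxylesterase CES1, by 0.76. Reads of CES1P1 and CES1 can be confused, and so can those of H2AC6, a histone gene with near-identical copies, which rose by 0.93 and did not pass against siIGF2BP3.

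Changes that differed from those in the other knockdowns were sought by direct tests. These set siIGF2BP1 against siIGF2BP2 (18.7% of genes called, 9.65% higher and 9.04% lower) and against siIGF2BP3 (14.3% called, 8.31% higher and 6.0% lower). The siIGF2BP2 libraries differed from siControl at 12.1% of genes, with 6.65% higher and 5.47% lower. For siIGF2BP3 that share was 9.39%, made of 4.93% higher and 4.47% lower. A gene counts as particular to siIGF2BP1 where it passed against siControl and against each other knockdown in the same direction, which 707 genes did (5.38% of those tested), 361 higher (2.75%) and 346 lower (2.63%). The 3 tests share the siIGF2BP1 libraries, and a particular change can also be present, at a smaller size, in the other knockdowns. Of all genes, 222 were higher and 90 lower in all 3 knockdowns against siControl (2.38% in all, 1.69% and 0.685% by direction), and the sets overlap in genes such as TGFBR3, which fell in all 3 and most in siIGF2BP1. ERCC scaling moved the median gene by -0.12 against siIGF2BP2 and by -0.11 against siIGF2BP3, and left 230 particular genes, 14 higher and 216 lower. Library size scaling left 705, of which 40.6% were higher against 51.1%. The count of rises moved with the scale more than the count of falls.

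Among the genes with the largest distance from the other knockdowns, DKK1 (chromosome 10, 52314281 to 52318042, plus strand), a secreted Wnt inhibitor, moved in opposite directions. It was at 217 and 218 CPM in siControl, 143 and 148 CPM in siIGF2BP1, 373 and 363 CPM in siIGF2BP2, and 259 and 246 CPM in siIGF2BP3. The 4 groups did not overlap, and siIGF2BP1 alone was below control (-0.58, SE 0.043, adjusted p = 3.84e-13), against 0.76 in siIGF2BP2 and 0.21 in siIGF2BP3. SLC19A3, a thiamine transporter, was at 8.06 and 8.30 CPM in siControl and at 4 and 5.49 CPM in siIGF2BP1 (-0.82), with 9.88 and 9.89 CPM in siIGF2BP2 and 7.66 and 8.40 CPM in siIGF2BP3. PIAS3, HAGLR, LTA4H and ATP7A, described above, differed by less than 0.25 from siControl in both other knockdowns, where none of the 4 was called.

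Several enzymes rose in siIGF2BP1 where they fell in siIGF2BP2. DCP2 (chromosome 5, 112976702 to 113022195, plus strand), the catalytic subunit of the mRNA decapping complex, was at 47.6 and 44 CPM in siControl, 61.7 and 59.2 CPM in siIGF2BP1, 28.2 and 26.4 CPM in siIGF2BP2, and 39.6 and 43.7 CPM in siIGF2BP3. The siIGF2BP1 pair was highest (0.40, SE 0.065, adjusted p = 1.46e-05) and the siIGF2BP2 pair lowest (-0.74). DDAH1, which breaks down the nitric oxide synthase inhibitor ADMA, was at 148 and 146 CPM in siControl, 183 and 187 CPM in siIGF2BP1, 102 CPM in both siIGF2BP2 libraries, and 119 and 121 CPM in siIGF2BP3. ADH4, a liver alcohol dehydrogenase, was at 125 and 113 CPM in siControl, 166 and 161 CPM in siIGF2BP1, 84.4 and 94.8 CPM in siIGF2BP2, and 107 and 113 CPM in siIGF2BP3. For both genes the siIGF2BP1 libraries were above the other 6. ANGPTL8, a secreted regulator of lipoprotein lipase, TRAPPC14, a vesicle tethering subunit, and SUSD2, a membrane glycoprotein, were 0.68, 0.67 and 0.67 above the mean of the other knockdowns. Against siControl their differences were 0.32, 0.47 and 0.37, and each lost its call without siControl replicate 2 (adjusted p = 0.349, 0.207 and 0.236). IGF2BP3 also belongs to the particular rises, but in siIGF2BP3 it is the siRNA target.

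**Figure D2:**
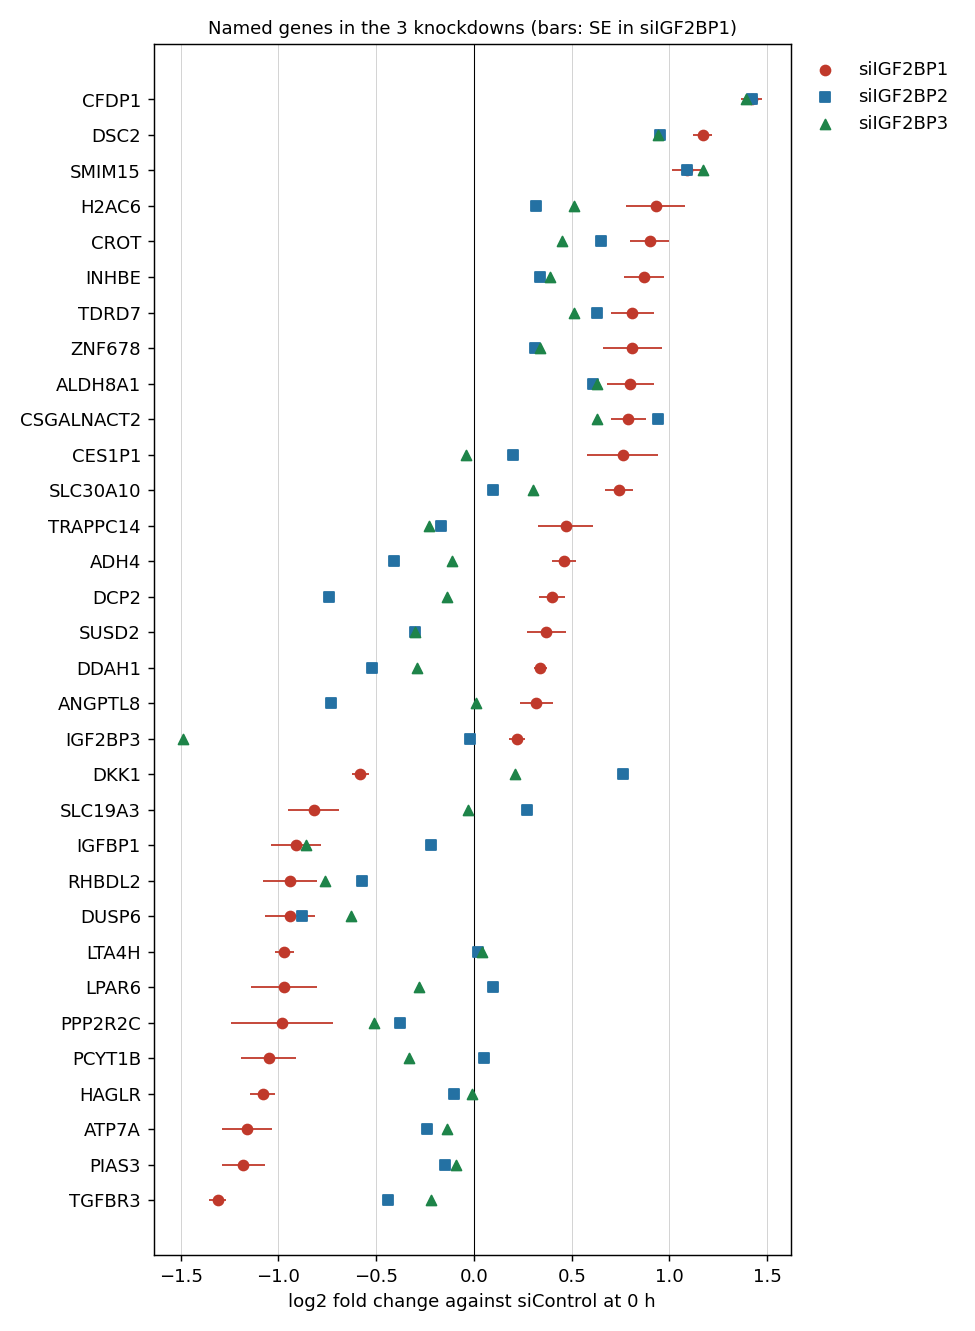
Log2 fold change against siControl at 0 h of the named genes other than IGF2BP1, in siIGF2BP1 (circles, with bars of 1 SE), siIGF2BP2 (squares) and siIGF2BP3 (triangles), ordered by siIGF2BP1. CFDP1 and SMIM15 coincide in the 3 knockdowns, while PIAS3 (-1.18), LTA4H (-0.97) and DKK1 (-0.58) were called lower in siIGF2BP1 and in neither other knockdown.

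Gene groups were then described by how many tested members were called and by the median difference, next to all genes tested (9.43% higher, 6.5% lower, median 0.01). The genes on the 57 pathway lists had a median level of 65.7 CPM against 21.2 CPM for all genes, and 27.2% of them were called, so a list near that share does not stand out. The lists were described without a test of their own.

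The NRF2 targets, genes of glutathione, quinone and iron detoxification, were called most often. Of 22 tested, 16 rose and none fell, with a median of 0.19 against 0.05 in both siIGF2BP2 (3 higher, 2 lower) and siIGF2BP3 (2 higher, 1 lower). AKR1C2 and AKR1C1, aldo-keto reductases that clear reactive carbonyls, rose by 0.59 and 0.54. AKR1C1 was at 670 and 800 CPM in siControl and at 1021 and 1111 CPM in siIGF2BP1, and the groups did not overlap, although reads of these near-identical genes can be confused. FTL, the ferritin light chain and the most abundant of the list, was at 3539 and 3525 CPM in siControl and at 4479 and 4551 CPM in siIGF2BP1 (0.35, SE 0.022, adjusted p = 3.10e-15), with 0.21 and 0.17 in the other knockdowns, and it has processed pseudogenes that may share its reads. Of the 16, 10 were particular to siIGF2BP1. Under ERCC scaling 4 of the 16 were called and the median was 0.16, and at 3 h and 6 h the list had 12 and 14 members higher and none lower.

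Of 18 members of the pentose phosphate and NADPH list, 6 rose, none fell and 12 were not called, 5 of the rises being particular to siIGF2BP1, with a median of 0.06. TALDO1, transaldolase, rose by 0.25 and SHMT1, a serine hydroxymethyltransferase of folate metabolism, by 0.19. TALDO1 was at 196 and 199 CPM in siControl and at 231 and 239 CPM in siIGF2BP1, and its differences in siIGF2BP2 and siIGF2BP3 were 0.11 and 0.09. TALDO1 also stands on the NRF2 list. Under ERCC scaling none of the 18 was called, and leaving out siIGF2BP1 replicate 2 gave 2 calls, both of them higher.

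Genes of fatty acid metabolism were called in part. Of 24 fatty acid oxidation genes 7 rose and none fell (median 0.09, against -0.02 and -0.07 in siIGF2BP2 and siIGF2BP3), 4 of them particular to siIGF2BP1, a called share of 29.2% near that of all list genes. CPT1A, the gate for fatty acids into mitochondria, was at 12.6 and 10.7 CPM in siControl and at 14.9 and 16.3 CPM in siIGF2BP1 (0.42, SE 0.094, adjusted p = 0.00115). SLC25A20, the carnitine carrier, rose by 0.33 and CPT2, the inner-membrane transferase, by 0.27. Of 21 fatty acid synthesis and esterification genes 8 rose and 4 fell. The rises were led by ACSL1, which activates fatty acids (0.39), and by DGAT2 and DGAT1, which complete triglycerides (both 0.33, with 0.31 for DGAT1 in siIGF2BP3), and the falls by ACSL3, another acyl-CoA synthetase (-0.26), ELOVL5, an elongase (-0.16), and FADS1, a desaturase (-0.14). Without siControl replicate 2 the oxidation list had 2 members higher and 1 lower. Under ERCC scaling none of the oxidation genes was called, and 5 of the synthesis genes were higher and 1 lower.

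Secreted liver proteins changed in both directions. Of 27 plasma carriers and acute phase proteins 8 rose and 6 fell (median 0.08). HPX, which binds free haem, was at 24.9 and 25.5 CPM in siControl and at 37.3 and 40 CPM in siIGF2BP1 (0.61, SE 0.062, adjusted p = 1.10e-09). HP, which binds free haemoglobin, was at 92.5 and 91.1 CPM against 127 and 125 CPM (0.46), where siIGF2BP2 was lower than control (-0.23). ORM1, an acute phase glycoprotein whose reads can be confused with those of ORM2, rose by 0.48. CP, the copper-carrying ferroxidase of plasma, was at 98.7 and 92.1 CPM against 65.4 and 70.9 CPM (-0.49, SE 0.049, adjusted p = 1.10e-09). TTR, which carries thyroxine, fell by 0.28 and FN1, plasma fibronectin, by 0.18. Of 20 apolipoproteins and lipoprotein assembly genes 8 rose and 3 fell, and 7 of the rises were particular to siIGF2BP1. APOL1 (0.33), LCAT, which esterifies cholesterol in plasma (0.29), and APOC3 (0.17) led the rises. APOM, which carries sphingosine 1-phosphate, fell by 0.22. MTTP, which loads lipid onto APOB, fell by 0.19 here and by 0.21 and 0.24 in the other knockdowns, and APOB itself did not pass the test (-0.01). Under ERCC scaling 1 of the 20 was higher and none lower, and 3 were higher without siIGF2BP1 replicate 2 and 4 without either siControl library.

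Hepatic regulators and enzymes showed the same mixture. Of 30 hepatocyte transcription factors 7 rose and 4 fell. NR1H4, the bile acid receptor FXR, was at 78.2 and 77.4 CPM in siControl and at 112 and 115 CPM in siIGF2BP1 (0.54, SE 0.048, adjusted p = 3.56e-11), with -0.16 in siIGF2BP2 and 0.32 in siIGF2BP3. NR1H2, the oxysterol receptor LXR-beta, rose by 0.34, CEBPA, a factor of hepatocyte differentiation, by 0.32, and HNF4A, the central factor of hepatocyte identity, by 0.22, while NR2F1 (-0.41) and TOX3 (-0.34) led the falls. Of 13 bile acid genes 4 rose and 2 fell: besides NR1H4, KLB, the co-receptor for FGF19, rose by 0.35 and CYP27A1, of the alternative synthesis pathway, by 0.31, and AKR1D1, which reduces the steroid ring, fell by 0.56. NR0B2, which represses bile acid synthesis, fell by 0.35, just under the threshold of the edgeR test (SE 0.12, adjusted p = 0.049). It was at -0.28 and -0.09 in siIGF2BP2 and siIGF2BP3 and passed the direct test against neither. Of 24 drug metabolism genes 7 rose and 3 fell, led by CYP4F2 (0.81), CYP4F3 (0.55) and CES1 (0.55), which have close paralogs and are uncertain. Without siIGF2BP1 replicate 1 the drug metabolism list had 3 higher and 3 lower, and without siControl replicate 1 the transcription factors had 4 higher and 1 lower.

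Amino acid and stress genes under ATF4, the factor of the integrated stress response, were called higher more often than lower. Of 28 tested 10 rose, 1 fell and 17 were not called (median 0.08), and 6 of the rises were particular to siIGF2BP1. DDIT4, an inhibitor of mTORC1, was at 30.6 and 27.1 CPM in siControl and at 40.5 and 45.2 CPM in siIGF2BP1 (0.57, SE 0.089, adjusted p = 9.00e-06). NUPR1, a stress-induced chromatin protein, rose by 0.29 and PSAT1, of serine synthesis, by 0.28, while SLC7A1, an arginine transporter, fell by 0.25. With ERCC scaling 2 rose and 1 fell.

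Genes that limit growth factor signalling were among those that fell. Of 17 MAPK feedback genes 6 fell and none rose. Behind DUSP6, SPRY4 fell by 0.52 and SPRY1 by 0.42, both of them inhibitors of receptor tyrosine kinase signalling. They did not fall in siIGF2BP1 alone, since SPRY4 was at -0.41 and -0.51 in siIGF2BP2 and siIGF2BP3. Only 1 of the 6, ETV4, an ETS factor induced by ERK and named here after its value was seen, was particular to siIGF2BP1 (-0.34 against -0.01 and -0.04).

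Of 24 hypoxia targets 6 fell and 3 rose, with a median of -0.16, and siIGF2BP3 had 9 lower with a median of -0.19. Without siControl replicate 1 or siIGF2BP1 replicate 1 the list had 3 members lower and a median of -0.05, without siControl replicate 2 it had 10 lower (-0.23), and without siIGF2BP1 replicate 2 it had 9 lower (-0.27). SLC2A3, the glucose transporter GLUT3, was at 73.1 and 65.6 CPM in siControl and at 37.3 and 42.4 CPM in siIGF2BP1 (-0.81, SE 0.059, adjusted p = 4.01e-13), with -0.40 and -0.47 in siIGF2BP2 and siIGF2BP3. SLC2A1, the glucose transporter GLUT1, was at 184 and 170 CPM against 104 and 115 CPM (-0.70, SE 0.054, adjusted p = 1.48e-12), with -0.26 and -0.30 in the others. Neither pair overlapped its control, and both transporters were lower in siIGF2BP1 than in each other knockdown by the direct tests. CA9, a carbonic anhydrase, was at 4.13 and 2.69 CPM against 1.28 and 2.13 CPM (-1.05). EPAS1 and HIF1A, the hypoxia-inducible factors, rose by 0.19 and 0.15.

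Of 32 TGF-beta and BMP genes 6 fell and 2 rose, a called share below the 27.2% of all list genes, so this list does not stand out. Under ERCC scaling 4 were lower and 2 higher. In siIGF2BP2 4 members were lower and 4 higher, and in siIGF2BP3 4 were lower and 2 higher. Besides TGFBR3, TGFBR2, the type II receptor, was at 211 and 214 CPM in siControl and at 151 and 157 CPM in siIGF2BP1 (-0.47), with -0.35 and -0.33 in siIGF2BP2 and siIGF2BP3. Besides INHBE, TGFBI, a matrix protein, rose by 0.28. Of 33 Wnt and beta-catenin genes 7 fell and 3 rose, with a median of 0 and a called share of 30.3%, near that of all list genes. Besides DKK1, NKD1, a feedback inhibitor and the most abundant of the list, was at 667 and 654 CPM against 532 and 531 CPM (-0.31), and TCF7L2, a transcription factor of the pathway, fell by 0.29. Without siControl replicate 2 the Wnt list had 4 lower and 1 higher.

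Genes of RNA metabolism were called in both directions. Of 47 RNA decay genes 7 rose and none fell (median 0.06), a called share of 14.9% that is near that of all genes. BTG2, an antiproliferative factor that recruits deadenylases, rose by 0.62 and XRN1, the cytoplasmic 5′ exonuclease, by 0.43, and only DCP2 and CNOT1, the scaffold of the deadenylase complex (0.18), were particular to siIGF2BP1. Of 35 translation factors 8 fell and 6 rose. EIF2S3, a subunit of the factor that delivers initiator tRNA, was at 178 and 175 CPM in siControl and at 130 and 131 CPM in siIGF2BP1 (-0.44, SE 0.036, adjusted p = 8.30e-12), with -0.06 in both other knockdowns. EIF4EBP2, a repressor of cap-dependent initiation, fell by 0.44 and EIF4G3, an initiation scaffold, by 0.35, and both were particular to siIGF2BP1. PABPC4, a poly(A)-binding protein, rose by 0.45, and by 0.64 and 0.55 in the other knockdowns. Of 56 cytosolic ribosomal protein genes 5 fell and none rose (8.93% called, median -0.03), and 41 were lower at 3 h. At 0 h none of them was called without siIGF2BP1 replicate 1, or under ERCC scaling, and 8 were lower without siIGF2BP1 replicate 2. Of 33 mitotic genes 9 rose and none fell (median 0.07), a called share of 27.3% near the 27.2% of all list genes. None of them was particular to siIGF2BP1, and 22 of the 33 were higher in siIGF2BP3.

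Transcripts known as clients of the IGF2BP proteins moved both ways. Of 26 tested 5 rose and 3 fell (median 0.03), a called share of 30.8% near the 27.2% of all list genes. IGF2 (chromosome 11, 2129112 to 2158391, minus strand), the fetal growth factor after which the family is named, was at 768 and 778 CPM in siControl, 1073 and 1058 CPM in siIGF2BP1, 842 CPM in both siIGF2BP2 libraries, and 865 and 854 CPM in siIGF2BP3. The siIGF2BP1 pair was highest (0.46, SE 0.040, adjusted p = 1.72e-11), while the other knockdowns were 0.12 and 0.15 above control. Its reads can be confused with those of the overlapping INS-IGF2. HDGF, a growth factor, rose by 0.30. HMGA2, an oncofetal chromatin protein, was at 244 and 236 CPM against 196 and 187 CPM (-0.33), and DANCR, a long noncoding RNA, and MGAT5, a glycosyltransferase, fell by 0.30 and 0.18. MYC was at 142 and 143 CPM in siControl and at 142 and 146 CPM in siIGF2BP1, a difference of 0.01 (SE 0.058, adjusted p = 0.92).

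**Figure D3:**
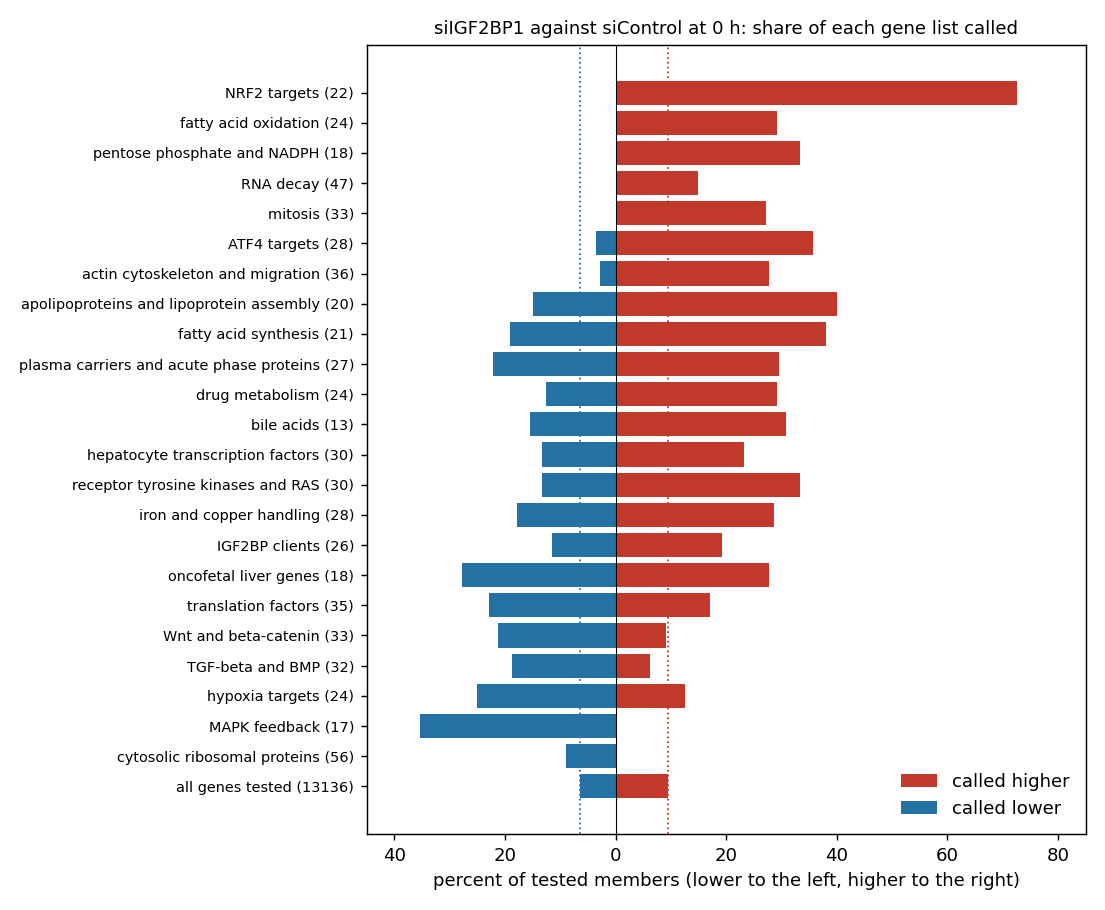
Percent of tested members called higher (right, red) and lower (left, blue) in siIGF2BP1 against siControl at 0 h, with the number tested in brackets. The 23 gene lists shown are those described in the text, out of 57 pathway lists. Dotted lines are all genes tested (9.43% and 6.5%), while 27.2% of list genes were called in either direction. NRF2 targets reach 72.7% higher and 0 lower, and MAPK feedback genes 35.3% lower and 0 higher.

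The same comparison at 3 h and 6 h of actinomycin D used other libraries, from plates of the same dishes (20.9% and 24.3% of genes called). Of the 2093 genes called at 0 h, 97.4% had the same sign at 3 h and 97.6% at 6 h, against 72.6% and 72.4% of all genes tested. Of them, 1292 (61.7%) were called in the same direction at both times, as were 542 (76.7%) of the 707 particular genes. The particular falls were at a median of -0.30 at 0 h, -0.34 at 3 h and -0.34 at 6 h, and the particular rises at 0.25, 0.22 and 0.25. IGF2BP1 itself was at -2.60 and -2.65, TGFBR3 at -1.47 and -1.50, and LTA4H at -1.30 and -1.42. LPAR6 was at -0.27 and -0.57 and passed at neither time.

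**Figure D4:**
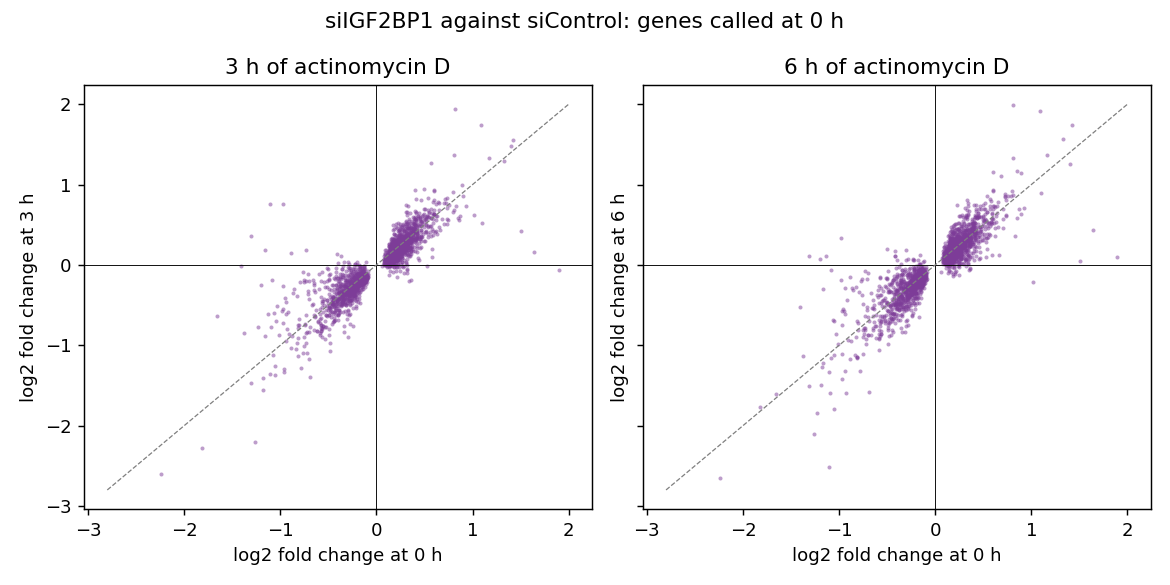
Log2 fold change of siIGF2BP1 against siControl at 3 h (left) and 6 h (right) against that at 0 h, for the 2093 genes called at 0 h; the dashed line marks equal values. Most points, 97.4% and 97.6%, lie in the quadrants of equal sign.

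Features of the transcripts were compared between the called genes and all genes. Genes called lower had longer 3′ UTRs, with a median of 1783 bases against 1324 bases for all genes and 1384 bases for genes called higher. The particular falls had a median of 2025 bases and the particular rises of 1177 bases. Loss between 3 h and 6 h in siControl, on the ERCC scale, was at a median of -0.42 for all genes, -0.38 for genes called higher and -0.35 for genes called lower, less loss than over all genes in both sets. The called genes were also more abundant, with medians of 63.0 CPM (higher) and 44.5 CPM (lower) against 21.2 CPM, a level that enters the calls themselves.

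A short sequence was frequent in the 3′ UTRs of genes that fell. All 7-letter words on the transcript strand were counted in the 3′ UTR of the GENCODE canonical transcript of 11358 tested genes. They were ranked by their excess over all of these, in units of the binomial SD. The word below was therefore chosen after the values were seen and carries no test. ACTCCAA ranked first both among the genes called lower (193 of 797, 24.2%) and among the particular falls (110 of 331, 33.2%), against 9.46% of all 3′ UTRs. The word ranking next, CTCCAAA, shares 6 letters with it and was in 35.3% of the particular falls against 15.5% of all. Of the genes with ACTCCAA 18.0% were called lower at 0 h, against 5.87% of those without it, and 7.91% against 11% were called higher. The share lower did not rise with copies, at 18.4% of 979 genes with 1 copy and 13.5% of 96 genes with 2 or more. In siIGF2BP2 the shares lower were 7.44% with and 5.85% without the word, and in siIGF2BP3 6.51% and 4.86%. At 3 h and 6 h, in libraries from the same transfected dishes whose differences mostly keep the sign of those at 0 h, 22.6% and 22.7% of the carriers were called lower in siIGF2BP1, against 9.75% and 10.3% of the other genes.

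Longer 3′ UTRs hold more words of any kind, so the shares were also taken within 3 equal groups of 3′ UTR length, an analysis added after the values were seen. In the shortest, middle and longest group the word was in 8.19%, 22.6% and 33.5% of genes called lower, in 1.95%, 7.58% and 18.9% of all genes, and in 0.998%, 3.69% and 16.2% of genes called higher. These are descriptions of the genes that chose the word. The median carrier changed little, at -0.03 against 0.02 for genes without the word, and 110 of 1075 carriers (10.2%) against 221 of 10283 other genes (2.15%) were particular falls. Most carriers were not called.

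The sites of the 7 carriers with the largest particular falls are shown, so that the word can be seen in its context, with 10 bases on each side, in the direction of the transcript, with the word in capitals; the last line is the match in the coding sequence of IGF2BP1 itself, at base 1704 of its canonical transcript. Positions are in hg38 and sequences from GENCODE v44 transcripts, at chr1:91680986-91681012 (TGFBR3), chr1:145848861-145848887 (PIAS3), chr1:109275384-109275410 (CELSR2), chr15:65328541-65328567 (IGDCC3), chr7:138837313-138837339 and chr7:138834196-138834222 (KIAA1549, with 2 copies), chrX:85863418-85863444 (CHM), chr7:107203434-107203460 (COG5) and chr17:49045003-49045029 (IGF2BP1). CELSR2 and IGF2BP1 lie on the plus strand and the others on the minus strand.
TGFBR3: aatgccccaaACTCCAAggcagattgt
PIAS3: aaaccaaaatACTCCAAagatgacttc
CELSR2: gtcaccatttACTCCAAgcatgtattc
IGDCC3: ggtgaattagACTCCAAaagatgaccc
KIAA1549 first copy: gagcctgatgACTCCAAacaaagccat
KIAA1549 second copy: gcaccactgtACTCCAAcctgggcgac
CHM: accaccaaggACTCCAAattgtgtatg
COG5: ttaaacacatACTCCAAaagactgcta
IGF2BP1: gaaacacctgACTCCAAagttcgtatg
In 6 of the 9 sites the base after the word is A, which makes the overlapping word CTCCAAA. CELSR2, a cadherin of planar cell polarity, was at 30.1 and 29.1 CPM in siControl and at 16.6 and 15.2 CPM in siIGF2BP1 (-0.88), with -0.05 and 0.01 in siIGF2BP2 and siIGF2BP3. IGDCC3, an immunoglobulin-domain membrane protein, was at 138 and 144 CPM against 78.8 and 78.9 CPM (-0.84), with 0.13 and -0.11 in the others. CHM, an escort protein for Rab prenylation, and COG5, a Golgi tethering subunit, both fell by 0.81, and KIAA1549 fell by 0.82. CHM was also called lower in siIGF2BP3 (-0.23, with -0.07 in siIGF2BP2). KIAA1549 was also called lower in siIGF2BP2 (-0.27, with -0.05 in siIGF2BP3), while COG5 was at 0 and -0.05 in the others. For these genes the siIGF2BP1 pair was below the other 6 libraries at 0 h. It is known as background that an siRNA can lower transcripts whose 3′ UTR pairs with the start of its guide strand. The siRNA sequence is not given in the sources used here, so whether the word belongs to it was not tested, and neither was binding of IGF2BP1 to these sites. Not every large fall had the word: ATP7A and LTA4H had no copy, and the 3′ UTR of IGF2BP1 itself held none. The IGF2BP1 match is a single one in a transcript of 8796 bases, and how often other words match there was not tested.

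**Figure D5:**
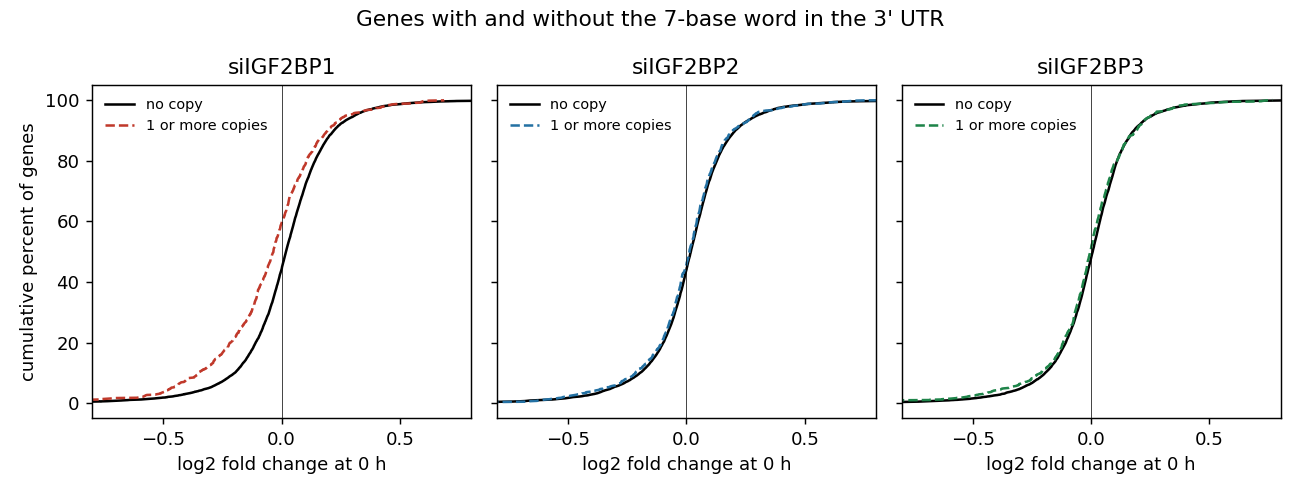
Cumulative percent of genes by log2 fold change at 0 h (axis from -0.8 to 0.8) in siIGF2BP1, siIGF2BP2 and siIGF2BP3, for 1075 genes with the 7-letter word in the 3′ UTR (dashed) and 10283 without it (solid). The dashed line lies to the left in siIGF2BP1, with medians of -0.03 and 0.02, and close to the solid line in the other knockdowns.

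Among the genes that rose another word ranked first by the same measure. ATTACAA was in 23.2% of the 3′ UTRs of genes called higher and in 44.7% of those higher in all 3 knockdowns, against 13.4% of all, but the 3′ UTRs of the latter set are longer (median 1922 bases) and no shares by length were taken. It was not among the 5 leading words of the rises particular to siIGF2BP1, where the leading word, CGACCAG, was in 17 of 355 genes (4.79% against 1.49%).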

How the data were processed

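Per the labels and the study's methods, the authors trimmed single-end reads (Trimmomatic 0.39), aligned them to hg38 (HISAT2 2.1.0, stranded setting) and counted reads per GENCODE gene with HTSeq, whose strand, overlap and multi-mapping settings are not given in the sources used here. The deposited values are raw read counts. HTSeq summary rows (13.6% to 17.1% of a library's total) and 45 PAR_Y rows were left out. Spike-in ERCC RNA was added per total RNA, so it does not measure RNA per cell. Libraries of METTL1 knockdown were not analysed here.

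The 13136 genes that reached 1 CPM in 2 or more libraries were fitted with edgeR 4.0.16 (R 4.3.3), using 12 group means over 24 libraries (12 residual degrees of freedom), TMM scaling and the two-sided quasi-likelihood test. P-values were Benjamini-Hochberg adjusted over all genes (threshold 0.05), and SE is the effect divided by the root of F. The code was tested on simulated data. Alternatives were ERCC and library size scaling, DESeq2 1.42.0, other filters, fewer libraries, a replicate block and leaving out each library. Gene positions and 3′ UTRs are from GENCODE v44.

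Named genes are the IGF2BP family, IGF2 and MYC, the 12 largest rises and falls with a mean of at least 5 CPM and groups that do not overlap, the 8 genes higher and 8 lower that differ most from the other knockdowns, up to 3 called members of each list per direction with its most abundant member, and hepatocyte markers. CELSR2, IGDCC3, KIAA1549, CHM, COG5, ETV4 and the markers of other cells were named outside that rule, after their values were seen. Some genes that the rule names are not reported here. Members, lists and tests were chosen with earlier results of these data known.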

Additional observations from a re-analysis of the deposited data

Results flagged for a closer look

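The effect of siIGF2BP1 differed from that of both other knockdowns, by edgeR tests of the differences themselves, for 361 genes higher and 346 genes lower. Relative to the mean of siIGF2BP2 and siIGF2BP3 at 0 h, the log2 difference of the lower genes was -2.32 for IGF2BP1, -1.07 for PIAS3, -1.07 for DKK1, -1.02 for HAGLR, -0.99 for LTA4H, -0.98 for TGFBR3, -0.97 for ATP7A and -0.94 for SLC19A3. That of the higher genes was 0.98 for IGF2BP3, which siIGF2BP3 targets, 0.84 for DCP2, 0.74 for DDAH1, 0.72 for ADH4, 0.68 for CES1P1, 0.68 for ANGPTL8, 0.67 for TRAPPC14 and 0.67 for SUSD2. Groups of 2 libraries are too small for a search for samples that stand apart.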

How the results depend on the processing

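The fall of IGF2BP1 kept its direction and call under every alternative run. ERCC scaling moved the counts most: 649 genes called against siControl (39.0% higher), 1585 against siIGF2BP2 (15.0% higher, against 51.6%), 875 against siIGF2BP3 (11.2% higher, against 58.1%), 230 particular genes (6.09% higher, against 51.1%), 615 called with the same sign at 3 h and 6 h, and 119 of 1534 genes on pathway lists (43.7% higher, against 64.1%). Library size scaling lowered the share higher among particular genes to 40.6% and among list genes to 54.1%. Leaving out each library in turn gave 1266 to 1420 calls against siControl (main 2093), 1594 to 1640 against siIGF2BP2 (main 2455), 1107 to 1187 against siIGF2BP3 (main 1879), 428 to 581 particular genes (main 707), 1248 to 1369 with the same sign later (main 2002) and 278 to 290 list genes (main 418). Against siControl the count moved by over 1.5 times without siControl replicate 1 (1266), siIGF2BP1 replicate 1 (1309) or siIGF2BP1 replicate 2 (1377), and for particular genes without siIGF2BP1 replicate 1 (440) or 2 (428). A group reduced to 1 library was assumed to vary like the others. Other tools, filters and fits of 8 or 4 libraries stayed within 1.5 times each count. No named gene called in the main fit or in the alternative changed direction, and genes called in neither were not checked. With the replicate block 2181 genes were called; replicate deviations of siControl and siIGF2BP1 correlated at -0.02, so the numbers do not pair the libraries. Of 300 named or listed genes called, 112 kept the call in every alternative and 169 lost it under ERCC scaling; the cause was not tested. Small differences of low transcripts are limited by 2 libraries a group and by depth.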

Other observations

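Among growth signalling genes not described above, receptor tyrosine kinases and RAS regulators were called in 14 of 30 cases, 10 higher and 4 lower, with 6 and 3 left without siControl replicate 2 and 2 of each under ERCC scaling. FGFR3, a fibroblast growth factor receptor, was at 188 and 185 CPM in siControl and at 256 and 260 CPM in siIGF2BP1 (0.47, SE 0.037, adjusted p = 2.62e-12), and it rose by 0.40 and 0.38 in siIGF2BP2 and siIGF2BP3. Its relative FGFR1 was at 141 and 149 CPM against 116 and 122 CPM (-0.29, SE 0.048, adjusted p = 1.93e-05), with -0.04 and 0.11 in the other knockdowns. SOS2, a RAS exchange factor, rose by 0.41 and GRB2, an adaptor, by 0.40, with 0.42 and 0.29 in siIGF2BP2 and 0.44 and 0.40 in siIGF2BP3, while RPS6KA3, a kinase below ERK, fell by 0.25 and NRAS by 0.21.

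Of 36 actin and migration genes 10 rose and 1 fell, a called share of 30.6% near the 27.2% of all list genes, and 4 rose without siControl replicate 2 or siIGF2BP1 replicate 2 and 1 under ERCC scaling. RHOB, a small GTPase, was at 183 and 192 CPM against 246 and 254 CPM (0.42), with 0.16 and -0.19 in siIGF2BP2 and siIGF2BP3. ACTB, the cytoplasmic actin and also on the list of IGF2BP clients, lay at 3304 and 3234 CPM in the control pair and at 3728 and 3727 CPM in the knockdown pair (0.19, SE 0.021, adjusted p = 1.25e-08). EZR, which links actin to the membrane, fell by 0.15.

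Metal handling changed in both directions, with 8 of 28 genes higher and 5 lower. MT2A, a metallothionein that binds zinc and copper, was at 24.3 and 24.6 CPM in siControl, 16.3 and 18.2 CPM in siIGF2BP1, and its difference was -0.51 here, 0.24 in siIGF2BP2 and -0.70 in siIGF2BP3. MT1X, a related gene whose reads can be confused with other metallothioneins, was at 2.02 and 1.89 CPM against 1.13 and 0.98 CPM (-0.87). Of 18 oncofetal liver genes 5 rose and 5 fell. DLK1, a fetal Notch-like ligand, rose by 0.20 in siIGF2BP1 against -0.07 and -0.05 in the others, and HMGA1 fell by 0.22.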
